A study of Homo sapiens with 6 samples.

Results

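Replication-dependent histone genes encode the core histones H2A, H2B, H3 and H4, which form the protein spool of the nucleosome, and the linker histone H1, which binds the DNA entering and leaving it. A gene was counted as one of them when its symbol was H1-1 to H1-6 or began with H2AC, H2BC, H3C or H4C followed by a number. This gave 70 of the 58051 rows of the count table: 6 H1, 17 H2A, 19 H2B, 13 H3 and 15 H4 genes. The 13 histone pseudogene rows were left out. On GRCh38 (GENCODE 29 coordinates), 55 of the 70 genes lie on chromosome 6 and 13 on chromosome 1, with H4C16 on chromosome 12 and H2BC12L on chromosome 21.

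The libraries came from A375, an established line of human melanoma cells with mutant BRAF. After 2 h of starvation the cells spent 2 h with TGFB1 at 10 ng/mL, the ligand that activates TGF-beta receptors, or with the Vehicle, 4 mM HCl with 1 mg/mL BSA. There were 3 TGFB1 and 3 Vehicle RNA-seq libraries, described by the submitters as a technical triplicate, so p-values measure only the spread between these libraries. The label for the molecule is polyA RNA, whereas ribosomal RNA was depleted according to the extraction protocol, a method that keeps RNAs without a poly(A) tail.

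Histone mRNAs of this kind have no introns and no poly(A) tail in dividing cells. Their 3′ end is a short RNA hairpin, the histone stem-loop, which is bound by SLBP and cut with the help of the U7 small nuclear RNA. The genes are transcribed in S phase, when new DNA is packed, under the coactivator NPAT, and their mRNAs are degraded when DNA synthesis stops. In bulk RNA, a smaller share of cells in S phase and less histone RNA per cell cannot be told apart.

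The stem-loop is shown first because it is the feature that sets these mRNAs apart from polyadenylated ones. It was found as a 16-base core in the GENCODE 29 transcripts of 31 of the 70 genes, in 6 versions. The search used a fixed pattern of bases, so versions outside it would be missed. The commonest core, shown here in H2BC21, was shared by 17 genes. H4C2 and 4 other H4 genes carried T4C and A13G relative to it, counted from 1 at the 5′ end of the core, a change on both sides of the stem. H2BC5 was 1 of 4 genes with C10A, H4C9 1 of 3 genes with T4C, C10T and A13G, and H3C6 the one gene with T8C. The sixth version, A13G alone, was in H2AC11. The core is in capitals with 5 bases on each side.
H2BC21: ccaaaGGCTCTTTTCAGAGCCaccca
H4C2: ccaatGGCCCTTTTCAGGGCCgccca
H2BC5: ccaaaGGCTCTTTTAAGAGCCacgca
H4C9: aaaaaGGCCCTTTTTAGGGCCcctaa
H3C6: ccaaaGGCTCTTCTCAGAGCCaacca
Another 32 genes, H3C3 and H2AC20 among them, have transcript models that hold the coding part alone, and none of these models contained the core. The remaining genes, H1-4, H1-6, H2BC1, H2BC11, H2BC12L, H3C12 and H4C3, had no match either, although their models are not of the coding part alone. Models of 25 genes ran at least 50 bases past the stem-loop, such as that of H2BC21, with 1729 bases after it.

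Promoters of the 3 abundant genes that passed the test below are shown because the classes differ in these motifs. They come from RefSeq (GRCh38.p14) and run from 250 bases before to 50 bases after the gene start. Capitals mark the letters TATAAA of a TATA-type box, the letters CCAAT of the box named after them, the octamer ATTTGCAT and the E2F motif TTTCCCGC, on either strand.
H2AC20, chr1:149886668-149886967, plus strand: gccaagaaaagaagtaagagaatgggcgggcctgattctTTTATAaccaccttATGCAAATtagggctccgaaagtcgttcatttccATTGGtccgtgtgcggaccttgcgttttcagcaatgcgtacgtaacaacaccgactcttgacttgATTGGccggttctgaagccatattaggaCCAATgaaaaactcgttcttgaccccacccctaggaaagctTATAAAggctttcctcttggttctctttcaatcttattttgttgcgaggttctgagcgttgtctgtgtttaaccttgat
H3C3, chr6:26045134-26045433, plus strand: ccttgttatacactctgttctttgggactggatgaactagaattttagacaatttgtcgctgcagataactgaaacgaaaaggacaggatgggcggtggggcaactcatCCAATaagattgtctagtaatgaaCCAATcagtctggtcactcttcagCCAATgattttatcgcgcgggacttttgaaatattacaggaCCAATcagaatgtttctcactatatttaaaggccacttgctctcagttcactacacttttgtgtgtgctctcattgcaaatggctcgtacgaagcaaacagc
H4C2, chr6:26027234-26027533, minus strand: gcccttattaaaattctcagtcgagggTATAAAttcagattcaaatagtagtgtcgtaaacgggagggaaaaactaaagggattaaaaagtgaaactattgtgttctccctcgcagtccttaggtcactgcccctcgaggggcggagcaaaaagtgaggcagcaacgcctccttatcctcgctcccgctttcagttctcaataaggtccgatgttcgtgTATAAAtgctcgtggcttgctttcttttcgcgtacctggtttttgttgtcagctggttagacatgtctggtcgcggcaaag
The H2AC20 window holds all of these motifs but the E2F one and overlaps the window of H2BC21, which is transcribed the other way. That of H3C3 holds CCAAT, and that of H4C2 holds TATAAA. Windows were found for 64 of the 70 genes, 68 windows in all. TATAAA was in 66.2% of them, against 11.53% of all 35116 promoter windows. CCAAT was in 85.3%, against 34.61% of all, and in every H1, H2A, H2B and H3 window but only 3 of 13 H4 windows. The octamer was in 39.7%, against 1.77% of all, with 11 of 16 H2A and 15 of 20 H2B windows among them. TTTCCCGC was in 1.5% of the histone windows and 1.63% of all, the AP-1 site TGANTCA in 1.5% and 7.71%, and the SMAD box GTCTAGAC in 0% and 0.2%. Motifs were searched on both strands and each was counted separately, overlaps included.

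Library totals ran from 24713894 to 34895075 counts. The smallest library, Vehicle replicate 1, stood apart from the other Vehicle libraries on the first principal component of log2 CPM, at 37.1, against 13.4 and 8.25 in those and -20.7 to -17.7 in the TGFB1 libraries. SMAD7, the gene of an inhibitor induced by TGF-beta signalling, had 63.6, 57.1 and 62.6 CPM (read counts scaled to a common library total) in TGFB1 libraries, against 7.81, 8.84 and 11.2 CPM in Vehicle libraries. The response genes JUNB, SKIL and PMEPA1 were higher with TGFB1 too, with log2 fold changes of 1.855, 1.473 and 1.249 (adjusted p = 8.89e-22, 9.91e-21 and 1.29e-15). Of 10 melanocyte markers, 8 were tested, 5 below 0 and 3 above, with log2 fold changes from -0.78 to 0.94. At an unadjusted p under 0.05, 2 were lower and none was higher, against 4.87% and 7.41% of all genes. The edgeR test called 1 lower, against 0.887% of all genes, and this was MITF (adjusted p = 0.0355). Its adjusted p was 0.107 to 0.229 without Vehicle replicate 1 or 2 or TGFB1 replicate 1 or 3. It was 0.0537 by limma-voom and 0.0854 with no filter on low counts. The lineage factor SOX10 had 0 counts in all 6 libraries and TYR was near 0. The annotation release and strand setting of the counts are not given, so 0 counts need not mean an absent transcript. The 11 markers of other cell types summed to 14.6 to 16.7 CPM in TGFB1 libraries and 17.1 to 20.7 CPM in Vehicle libraries. Of them 4 were tested, and none was called by edgeR, DESeq2 or limma-voom. At an unadjusted p under 0.05, 1 was lower, against 4.87% of all genes.

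With TGFB1, 4 of the 60 tested histone genes were lower and none was higher. The 4 were H3C3, H4C2, H2AC20 and H3C6, with falls of 13.0%, 14.8%, 11.1% and 31.2%. The test was edgeR's quasi-likelihood test with Benjamini-Hochberg adjustment over all 16690 genes tested and a threshold of 0.05, which called 3.31% of all genes, 0.887% lower and 2.43% higher. At an unadjusted p under 0.05, 16 histone genes were lower and 1 was higher, against 4.87% and 7.41% of all genes. DESeq2 and limma-voom named the same 4 lower genes and none higher. In 6 lower genes and 1 higher gene the 3 TGFB1 libraries did not overlap the 3 Vehicle libraries, against 7.49% of all genes lower, 8.96% higher and 16.4% in either direction.

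The 4 calls depended on single libraries. None was left without TGFB1 replicate 1 and none without TGFB1 replicate 3, with 5 and 9 genes then lower at an unadjusted p under 0.05. H3C6 alone was left without Vehicle replicate 1, and H4C2 alone without Vehicle replicate 2. Without Vehicle replicate 3 the count was 9, and without TGFB1 replicate 2 it was 7. With no filter on low counts it was 3, as H2AC20 was lost.

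**Figure D1:**
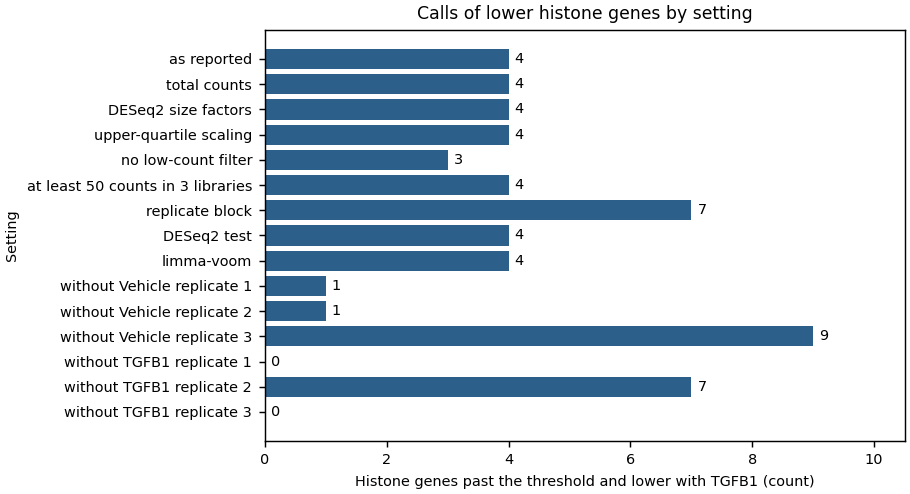
Number of histone genes past the threshold and lower with TGFB1 (horizontal axis, count) under each setting (vertical axis), from edgeR unless another tool is named. The bars stay at 3 or 4 under the other scalings, filters and tools, and the bar with the replicate number as a block is at 7. They run between 0 and 9 when a single library is left out.

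H3C3 encodes the replicative histone H3 and lies at chromosome 6, 26045411 to 26045821. It had 410.3, 449.1 and 400.3 CPM in TGFB1 libraries 1 to 3, against 497.3, 481.6 and 469.7 CPM in Vehicle libraries 1 to 3. All TGFB1 libraries were below all Vehicle libraries. TGFB1 libraries averaged 420 ± 25.8 CPM and Vehicle libraries 483 ± 13.8 CPM (SD, n = 3 each). On the log2 scale the difference was -0.20 ± 0.049 (SE), with an adjusted p of 0.0119. Adjusted p was 0.068 without Vehicle replicate 1, 0.0651 without Vehicle replicate 2, 0.129 without TGFB1 replicate 1 and 0.177 without TGFB1 replicate 3.

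H4C2, an H4 gene at chromosome 6, 26026815 to 26027252, had 166.7, 188.9 and 173.1 CPM in TGFB1 libraries, against 227.3, 200.1 and 193.8 CPM in Vehicle libraries. The groups did not overlap, although the highest TGFB1 library and the lowest Vehicle library lay close together. TGFB1 libraries averaged 176 ± 11.4 CPM and Vehicle libraries 207 ± 17.8 CPM (SD, n = 3 each), and the log2 fold change was -0.23 ± 0.058 (SE; adjusted p = 0.0166). The call was lost without Vehicle replicate 1 (adjusted p = 0.189), TGFB1 replicate 1 (0.211) or TGFB1 replicate 3 (0.112).

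H2AC20, an H2A gene at chromosome 1, 149886975 to 149887364, had 471.0, 524.8 and 486.1 CPM in TGFB1 libraries, against 582.9, 547.8 and 537.3 CPM in Vehicle libraries. Again no TGFB1 library reached the lowest Vehicle library. The mean was 494 ± 27.7 CPM in TGFB1 libraries and 556 ± 23.9 CPM in Vehicle libraries (SD, n = 3 each). The log2 fold change came to -0.17, with an SE of 0.049 and an adjusted p of 0.0466. Of its 50-base words, 30.5% also occur in other genes, mainly H2AC18 and H2AC19, so its count is uncertain to that extent. The call was lost without Vehicle replicate 1 (adjusted p = 0.261), Vehicle replicate 2 (0.134), TGFB1 replicate 1 (0.387) or TGFB1 replicate 3 (0.241), and with no filter on low counts (0.12).

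H3C6, an H3 gene at chromosome 6, 26224199 to 26227473, was a low gene, with 8.525, 10.17 and 6.726 CPM in TGFB1 libraries, against 10.92, 11.83 and 14.13 CPM in Vehicle libraries. The highest TGFB1 value was just under the lowest Vehicle value. The mean was 8.47 ± 1.72 CPM in TGFB1 libraries and 12.3 ± 1.66 CPM in Vehicle libraries (SD, n = 3 each). The log2 fold change was the largest of the 4, -0.54 with an SE of 0.14 (adjusted p = 0.0187). Unlike the other 3 genes, it was highest in Vehicle replicate 3 rather than Vehicle replicate 1. Its gene model has 2 exon blocks and 2679 exonic bases, against 1 block of 390 to 438 bases in those 3. The counts do not tell which part of the model was read. The call was lost without Vehicle replicate 2 (adjusted p = 0.0661), Vehicle replicate 3 (0.0777), TGFB1 replicate 1 (0.0916) or TGFB1 replicate 3 (0.219).

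**Figure D2:**
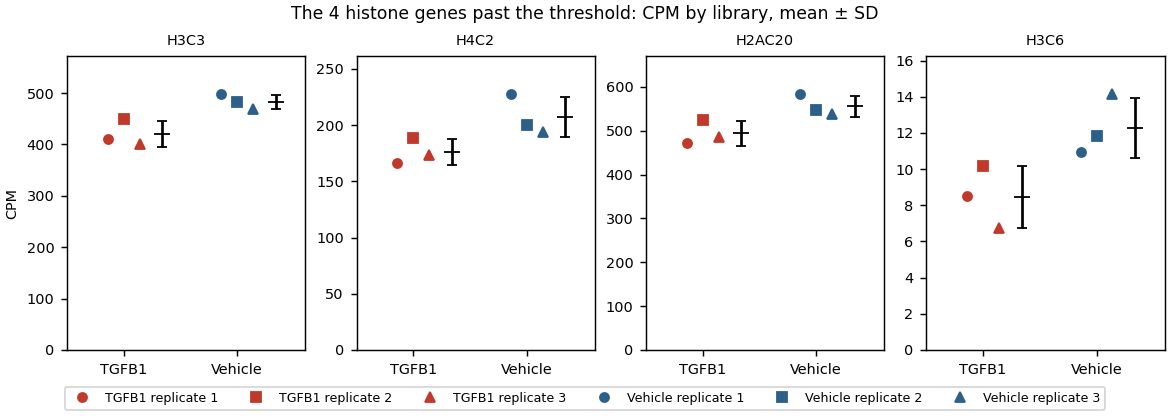
CPM (vertical axis, from 0) of H3C3, H4C2, H2AC20 and H3C6 in each TGFB1 library (red) and Vehicle library (blue), with the group mean ± SD (black bars, n = 3). In each panel the 3 TGFB1 points lie below the 3 Vehicle points; H3C6 is at 6.73 to 14.1 CPM, the others above 166 CPM.

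Among all 60 tested histone genes, 52 had a log2 fold change below 0, against 52% of all genes tested. Their median was -0.09 (quartiles -0.13 and -0.04), and that of all tested genes was -0.01. Of the 53 genes with a mean of at least 10 CPM, 48 were below 0, with a median of -0.09; of all 9101 genes at that level, 52.1% were below 0, with a median of -0.01. The differences of single genes were small: 50 of the 53 were within 0.2 of 0 on the log2 scale, and 36 had a 95% interval that included 0. The spread between replicates was of the same order, with a median coefficient of variation of 6.68% in TGFB1 libraries and 7.38% in Vehicle libraries. The median moved to -0.02, with 35 of 60 genes below 0, without Vehicle replicate 1, to -0.04, with 40 of 60, without TGFB1 replicate 1, and to -0.13 without TGFB1 replicate 2.

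Those libraries were also the extremes gene by gene. Of the 53 genes, 35 were lowest in TGFB1 replicate 1 and 43 were highest in Vehicle replicate 1, against 17.9% and 19.6% of all genes at that level. These are gene-by-gene counts from shared libraries and carry no test. The other listed RNAs without a poly(A) tail summed to 9963, 13928 and 12695 CPM in TGFB1 libraries 1 to 3, against 13301, 9554 and 8560 CPM in Vehicle libraries 1 to 3. Their highest library in each group, TGFB1 replicate 2 and Vehicle replicate 1, was the highest for the summed histone genes too. Of the 10 RNAs in that list, 4 were tested, 3 above 0 and 1 below. Their median log2 fold change was 0.11, against -0.09 for the tested histone genes. None of the 4 was called by edgeR, at an unadjusted p under 0.05 either, and limma-voom called SNORD3A higher. RN7SL1, RN7SK, RMRP, RPPH1 and SCARNA2 were at 0 in all 6 libraries, so RN7SL2 and SNORD3A made up most of the sum. The part of the recovery of such RNAs in the histone values was not tested.

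**Figure D3:**
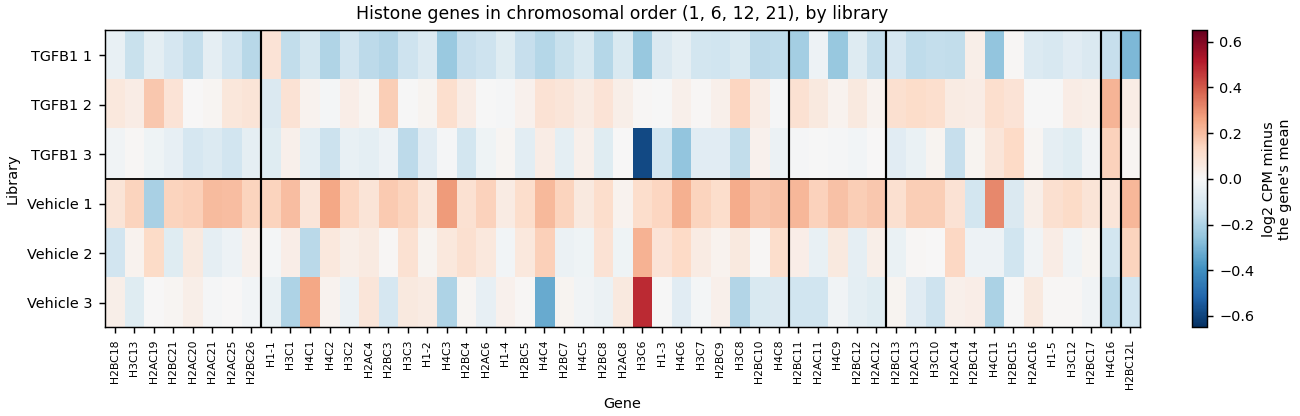
Log2 CPM minus the gene's mean over the 6 libraries (colour, red above and blue below the mean) for the 53 histone genes with a mean of at least 10 CPM (columns, in order along chromosomes 1, 6, 12 and 21), by library (rows). Vertical lines part chromosomes and blocks of chromosome 6. The row of Vehicle replicate 1 is mostly red and that of TGFB1 replicate 1 mostly blue, where 43 and 35 of the 53 genes have their highest and lowest values.

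Summed over all 70 genes, histone reads were 11779, 13223 and 12371 CPM in TGFB1 libraries, against 14059, 13056 and 12637 CPM in Vehicle libraries. The groups overlapped, since TGFB1 replicate 2 lay above 2 of the 3 Vehicle libraries. These sums were 1.19% to 1.31% of the counts in TGFB1 libraries and 1.28% to 1.39% in Vehicle libraries. TGFB1 libraries averaged 12458 ± 726 CPM and Vehicle libraries 13251 ± 731 CPM (SD, n = 3 each), a log2 ratio of -0.09. The class log2 ratios were -0.09 for H1, -0.09 for H2A, -0.07 for H2B, -0.10 for H3 and -0.11 for H4. All but that of H1 moved by more than 1.5 times when a single library was left out. Without Vehicle replicate 1 the ratios were -0.06 for H2A, -0.02 for H2B, -0.05 for H3 and -0.03 for H4. Without TGFB1 replicate 1 they were -0.05, -0.02, -0.06 and -0.04 for the same classes. H2B was at -0.12 and H4 at -0.16 without TGFB1 replicate 2, and H4 was at -0.19 without Vehicle replicate 3.

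**Figure D4:**
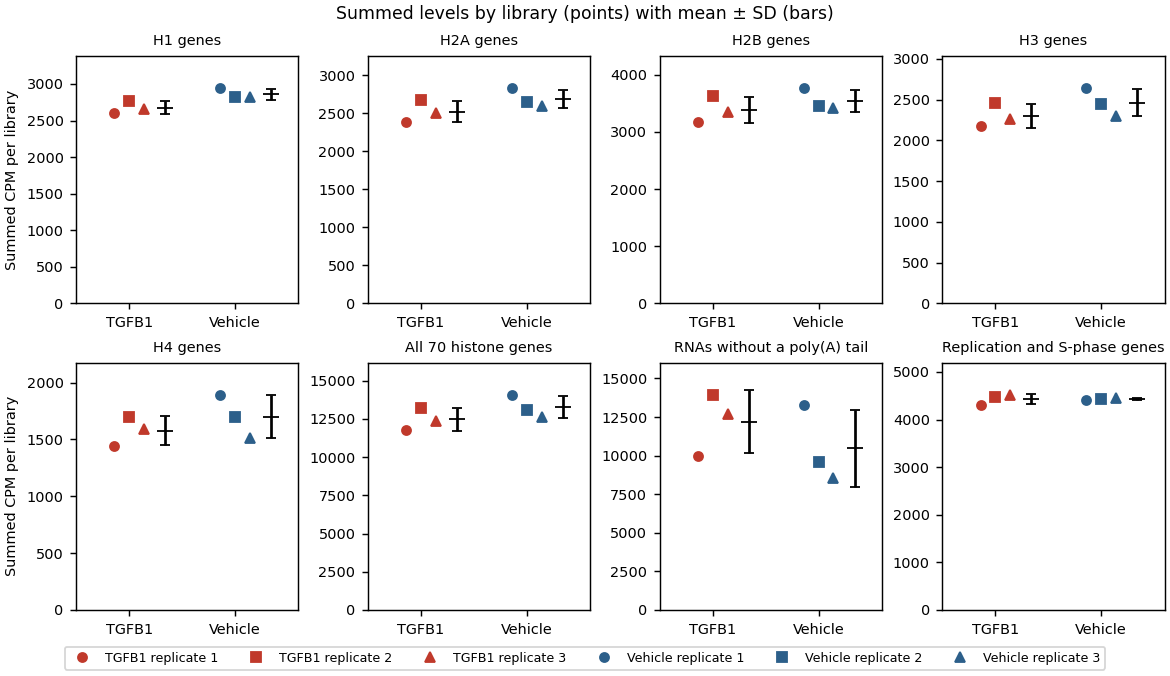
Summed CPM (vertical axes, from 0) of each histone class, of all 70 histone genes, of the listed RNAs without a poly(A) tail and of the listed replication and S-phase genes, in each TGFB1 library (red) and Vehicle library (blue), with mean ± SD (black bars, n = 3). The H1 sums do not overlap between the groups; the other histone classes and both companion lists do.

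The linker histones bind between nucleosomes and help to fold chromatin. All 5 tested H1 genes had a log2 fold change below 0, with a median of -0.09. None passed the adjusted threshold in edgeR, DESeq2 or limma-voom. At an unadjusted p under 0.05, 3 were lower, against 16 of all 60 tested histone genes and 4.87% of all genes. Their sum was 2605, 2769 and 2658 CPM in TGFB1 libraries, against 2940, 2817 and 2815 CPM in Vehicle libraries, and this was the one class whose groups did not overlap. H1-3 had 565.7, 603.3 and 553.0 CPM in TGFB1 libraries, against 665.3, 641.7 and 602.3 CPM in Vehicle libraries. It came closest to the threshold in this class, at -0.15 ± 0.048 on the log2 scale (SE; adjusted p = 0.0998), with TGFB1 replicate 2 just above the lowest Vehicle library. H1-2, the most abundant histone gene in CPM, had 886.8, 953.7 and 897.1 CPM in TGFB1 libraries, against 992.1, 952.7 and 977.5 CPM in Vehicle libraries. TGFB1 replicate 2 and Vehicle replicate 2 were nearly equal for H1-2, and the log2 fold change was -0.09 (adjusted p = 0.384). H1-5 had 366.5, 393.6 and 378.5 CPM in TGFB1 libraries, against 423.2, 407.3 and 396.0 CPM in Vehicle libraries; the groups did not overlap, but adjusted p was 0.329. For H1-4 the log2 fold change was -0.05, with a 95% interval of -0.14 to 0.05.

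H2A and H2B pair with each other before they join the nucleosome. Of the 13 tested H2A genes, 10 were below 0 (median -0.09) and H2AC20 was the one called, against 0.887% of all genes called lower. At an unadjusted p under 0.05, 4 H2A genes were lower and none was higher, against 4.87% and 7.41% of all genes. The summed H2A level was 2392, 2674 and 2508 CPM in TGFB1 libraries, against 2830, 2648 and 2595 CPM in Vehicle libraries, with TGFB1 replicate 2 above 2 Vehicle libraries. H2AC8, the next most abundant H2A gene after H2AC20, had 384.9, 424.0 and 413.4 CPM in TGFB1 libraries, against 418.8, 405.3 and 430.7 CPM in Vehicle libraries. Its log2 fold change was -0.04, with a 95% interval of -0.14 to 0.06. H2AC11 was level between the groups, at 293 ± 10.1 CPM with TGFB1 and 290 ± 29.5 CPM with Vehicle (SD, n = 3 each). H2AC12 averaged 206 ± 13.7 CPM with TGFB1 and 219 ± 19.2 CPM with Vehicle (adjusted p = 0.606). The remaining H2A gene whose groups did not overlap was H2AC4, with 147.5, 167.2 and 158.8 CPM in TGFB1 libraries, against 175.8, 172.8 and 175.0 CPM in Vehicle libraries (log2 fold change -0.15, adjusted p = 0.167).

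Of the 18 tested H2B genes, 16 were below 0, with the smallest median shift of the classes at -0.07, and none was called by edgeR, DESeq2 or limma-voom. At an unadjusted p under 0.05, 3 were lower and 1 was higher, against 4.87% and 7.41% of all genes. H2B sums were 3165, 3628 and 3350 CPM in TGFB1 libraries, against 3760, 3448 and 3412 CPM in Vehicle libraries. H2BC4 had 289.9, 331.6 and 296.0 CPM in TGFB1 libraries, against 344.3, 345.2 and 324.3 CPM in Vehicle libraries (log2 fold change -0.14, adjusted p = 0.164). H2BC18, the most abundant H2B gene, averaged 374.6 ± 16.5 CPM with TGFB1 and 375.3 ± 27.7 CPM with Vehicle (SD, n = 3 each), and the 95% interval of its log2 fold change was -0.11 to 0.10. H2BC21 had 336.5, 386.2 and 349.9 CPM in TGFB1 libraries, against 402.3, 343.8 and 366.1 CPM in Vehicle libraries, with the groups mixed. H2BC12 averaged 338 ± 17.5 CPM with TGFB1 and 345 ± 31.4 CPM with Vehicle (adjusted p = 0.913), and shares 74.1% of its 50-base words, mainly with H2BC12L. H2BC15 was the 1 histone gene whose TGFB1 libraries were all higher, with 62.63, 66.38 and 68.18 CPM, against 58.34, 56.94 and 62.34 CPM in Vehicle libraries. The closest libraries were nearly equal, and its log2 fold change of 0.15 did not pass (adjusted p = 0.273). The gene model of H2BC15 has 4 exon blocks and 5477 exonic bases, and overlaps H2AC15 on the other strand and H2AC16 on its own. Its counts do not tell which part of the model was read.

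H3 carries many of the tail modifications by which chromatin states are marked. Of 11 tested H3 genes, 10 were below 0 (median -0.08). H3C3 and H3C6 were called, against 0.887% of all genes called lower. At an unadjusted p under 0.05, 3 H3 genes were lower and none was higher, against 4.87% and 7.41% of all genes. H3C2, the H3 gene with the highest level, had 621.0, 697.2 and 654.2 CPM in TGFB1 libraries, against 745.4, 694.8 and 659.7 CPM in Vehicle libraries. Its groups overlapped, and the log2 fold change was -0.09 (adjusted p = 0.505). H3C7 had a log2 fold change of -0.12 (adjusted p = 0.273) and H3C10 one of -0.02 (adjusted p = 0.962). The H3 sum was 2171, 2454 and 2265 CPM in TGFB1 libraries, against 2638, 2443 and 2303 CPM in Vehicle libraries.

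H4 joins H3 at the centre of the nucleosome. Of 13 tested H4 genes, 11 were below 0 (median -0.10), and H4C2 was called, against 0.887% of all genes called lower. At an unadjusted p under 0.05, 3 H4 genes were lower and none was higher, against 4.87% and 7.41% of all genes. H4C3, the most abundant H4 gene, had 326.1, 416.8 and 383.8 CPM in TGFB1 libraries, against 467.1, 405.2 and 335.4 CPM in Vehicle libraries. Within each group its libraries differed by more than the group means did, with coefficients of variation of 12.2% in TGFB1 libraries and 16.4% in Vehicle libraries. H4C6 had 191.1, 203.8 and 166.7 CPM in TGFB1 libraries, against 234.0, 218.3 and 189.2 CPM in Vehicle libraries (log2 fold change -0.19, adjusted p = 0.368). H4C8 had a log2 fold change of -0.14 (adjusted p = 0.293), and H4C5 one of -0.01 with a 95% interval of -0.11 to 0.10. The H4 sum was 1445, 1697 and 1590 CPM in TGFB1 libraries, against 1891, 1700 and 1512 CPM in Vehicle libraries, the widest relative spread of the classes. The 95% intervals were widest, among genes of at least 10 CPM, for H4C11, H4C4 and H4C3.

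**Figure D5:**
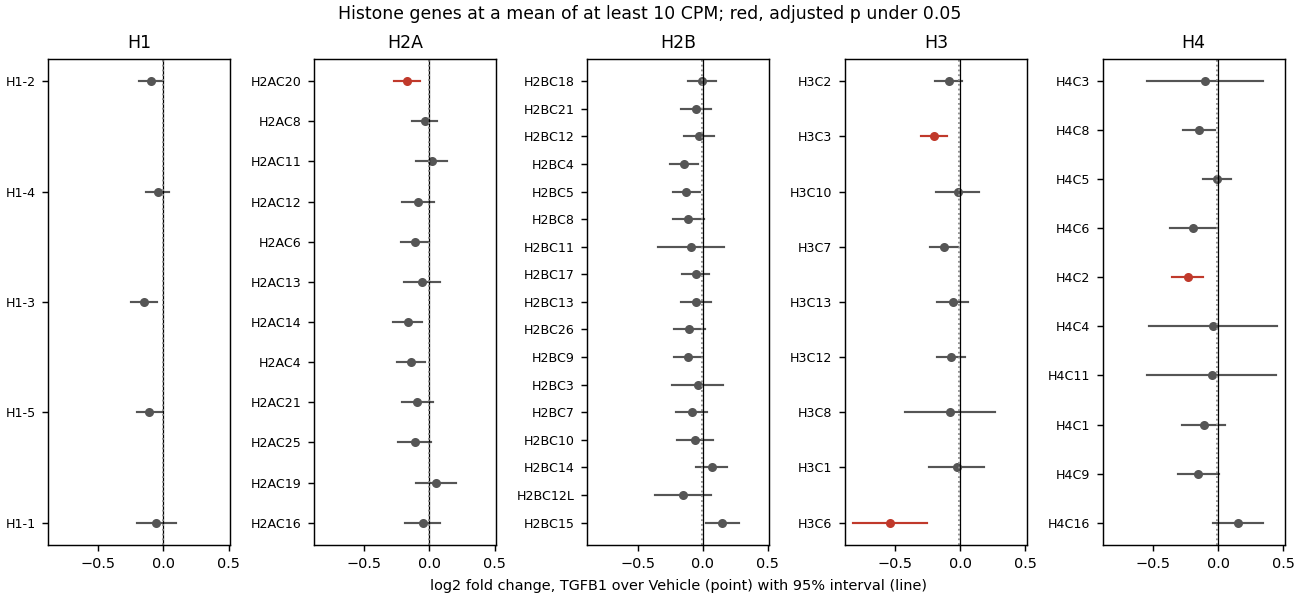
Log2 fold change of TGFB1 over Vehicle (horizontal axis) for the 53 histone genes with a mean of at least 10 CPM, by class, in order of mean CPM from the top (points), with 95% intervals (lines). The dotted line is the median of all tested genes, and red marks the 4 genes past the threshold; 48 points lie below 0 and most intervals cross it.

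Levels between genes were compared per kilobase of exonic length over all 6 libraries. H3C2 was highest at 1651 CPM per kb, followed by H1-2 at 1469, H2AC20 at 1346, H3C3 at 1098 and H1-4 at 1036 CPM per kb. H2AC20 and H3C3 were thus called near the top of the order, while H3C6, at 3.88 CPM per kb, was the lowest gene with a mean of at least 10 CPM, after H2BC15 at 11.4 and H4C16 at 10.7. Gene models differ in how much of the ends they hold, so long models give low values per kb.

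By position, all 28 tested genes of the first block on chromosome 6 were below 0 (median -0.11). So were 14 of 17 in the later block (-0.05) and 9 of 13 on chromosome 1 (-0.06). These counts had no cut on level. Of the 4 chromosome 1 genes above 0, all but H2AC19 had means under 2 CPM and a near-identical copy: H2AC18, H3C14 and H4C15. H3C15 and H4C14, copies at the same low level, were below 0. Among genes of at least 10 CPM, 18 of 20 with an octamer in a promoter window and 25 of 28 without one were below 0, with medians of -0.07 and -0.09. With a stem-loop in the gene model 21 of 25 were below 0, and with a coding-only model 22 of 23, with medians of -0.08 and -0.09. No difference between these subsets was tested.

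H2A and H2B genes often stand head to head with a shared promoter. There were 11 such pairs, with 218 to 330 bases between the gene models. In 6 of the 8 pairs with both genes tested both were below 0. Taken singly, 52 of the 60 tested histone genes were below 0. H2BC21 and H2AC20, 322 bases apart, had log2 fold changes of -0.05 and -0.17. H2BC4 and H2AC6 had -0.14 and -0.11. The pair H2AC14 and H2BC14, 303 bases apart, differed in sign, with -0.17 ± 0.055 and 0.07 ± 0.057 (SE), and neither passed the test. Differences within pairs were not tested.

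Some histone genes are also known to give polyadenylated transcripts, chiefly in cells that stop dividing. The 6 listed (H1-2, H2AC6, H2BC4, H2BC5, H2BC12 and H2BC21) were all below 0, with a median of -0.10. None was called by edgeR, DESeq2 or limma-voom, and 4 were lower at an unadjusted p under 0.05. At that level 16 of all 60 tested histone genes were lower, and 4.87% of all genes.

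Histone variants take the place of replicative histones at particular sites or times, and many, such as H3.3, are made outside S phase from polyadenylated mRNAs. Of 12 listed as replication-independent, 11 were tested and none was called by any of the 3 tools. At an unadjusted p under 0.05, 2 were higher, against 7.41% of all genes. In sign, 8 of the 11 were above 0, with a median of 0.03, as were 8016 of all 16690 genes tested. Only 8 of the 60 replicative genes were above 0. Without Vehicle replicate 1, however, 35 of those 60 were below 0, with a median of -0.02. The difference between the lists was not tested. H3-3A, which encodes the variant H3.3, had 347, 327 and 326 CPM in TGFB1 libraries, against 301, 314 and 311 CPM in Vehicle libraries (log2 fold change 0.11, adjusted p = 0.315). H1-10 had a log2 fold change of 0.17 (adjusted p = 0.226) and CENPA, the centromeric H3, one of 0.13 (adjusted p = 0.488).

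Over all genes tested, 2.43% were called higher and 0.887% lower. Of the 20 genes that act on histone mRNA, from its transcription to its decay, 1 was higher and none was lower. It was TENT4A, a noncanonical poly(A) polymerase, with 48.8, 45.8 and 47.8 CPM in TGFB1 libraries, against 36.1, 41.0 and 42.1 CPM in Vehicle libraries (log2 fold change 0.25, adjusted p = 0.0441). DESeq2 also called it and limma-voom did not (adjusted p = 0.0629), nor did total-count (0.0573) or upper-quartile scaling (0.0624). Its adjusted p was 0.256 without Vehicle replicate 1, 0.0986 without Vehicle replicate 2 and 0.24, 0.06 and 0.168 without TGFB1 replicates 1, 2 and 3. SYMPK, a scaffold of the 3′ end cutting complex, had a log2 fold change of -0.20 (adjusted p = 0.0984), and TUT7, which adds uridines to RNA ends, one of -0.16 (adjusted p = 0.323). The list of histone chaperones and proteins that work with them at replication forks had 14 genes. In it 1 gene was lower and none was higher, against 0.887% and 2.43% of all genes. The lower gene was FAM111A, a PCNA-linked protease that does not itself carry histones, with 93.9, 99.9 and 97.4 CPM in TGFB1 libraries, against 120, 112 and 112 CPM in Vehicle libraries (log2 fold change -0.24, adjusted p = 0.00622). Its adjusted p was 0.055 without Vehicle replicate 1 and 0.092 without TGFB1 replicate 1. None of the other listed genes was called by edgeR, DESeq2 or limma-voom, and at an unadjusted p under 0.05 ASF1B alone was higher and none was lower. ASF1B and ASF1A, which carry H3 and H4, had log2 fold changes of 0.12 (adjusted p = 0.362) and -0.10 (adjusted p = 0.583).

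None of the 26 replication and S-phase genes was called by edgeR, DESeq2 or limma-voom. At an unadjusted p under 0.05, 1 was lower and 1 higher, against 4.87% and 7.41% of all genes. Their sums were 4303, 4464 and 4518 CPM in TGFB1 libraries, against 4411, 4440 and 4455 CPM in Vehicle libraries, and their median log2 fold change was -0.03. MCM4, a subunit of the replicative helicase, had a log2 fold change of 0.16 (adjusted p = 0.155). CLSPN, the checkpoint mediator claspin, had -0.14 (adjusted p = 0.246), and the S-phase kinase CDK2 had 0.11 (adjusted p = 0.412).

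Not every histone gene could be measured. The filter on low counts removed 10 genes: H1-6, H2AC1, H2AC7, H2AC15, H2AC17, H2BC1, H3C4, H3C11, H4C7 and H4C13. H2AC15, H3C4, H3C11 and H4C7 had 0 counts in all 6 libraries, and H1-6, the testis linker histone, had the most of the 10, 39 counts in all. Overlap with other models touches several of them: H3C4 lies wholly and H2AC7 to 98.0% within exons of ENSG00000282988, H2AC17 to 88.0% within exons on its own strand, and H2AC15 wholly under exons of the other strand. Another 7 genes were tested at a mean under 2 CPM (H2AC18, H2BC6, H3C14, H3C15, H4C12, H4C14 and H4C15). Of these, all but H2BC6 share at least 97.2% of their 50-base words with a near-identical copy, so reads that match both copies may be missing from them. The same uncertainty holds for H2AC19, H4C11, H2AC13 and H2AC14, and for H2BC12 and H2BC12L. In all, 19 of the 70 genes shared at least 20% of their words with another gene.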

How the data were processed

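The authors deposited whole-number read counts per gene for 6 libraries, 3 TGFB1 and 3 Vehicle. The submitters' processing notes name cutadapt, TopHat2 2.1 and HTSeq, with GRCh38. Not given in the sources used here are the annotation release and the strand setting, so genes with opposite-strand or near-identical partners are uncertain. No column was left out. Symbols matched 41445 of 58051 IDs. For 4 members the name came through the GENCODE 29 name.

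Genes kept by filterByExpr (minimum count 10, minimum total 15) were scaled by TMM and tested with edgeR 4.0.16 (quasi-likelihood, robust, R 4.3.3; Benjamini-Hochberg over 16690 genes, threshold 0.05). CPM are counts per 1000000 of the scaled library total. Sums, medians and class ratios carry no test. The test was checked on simulated data, in which the changes set were larger than those of H3C3, H4C2 and H2AC20. That check thus does not cover changes as small as theirs. Alternatives used DESeq2 1.42.0, limma 3.58.1, other scalings and filters, a replicate block and each library left out.

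The members, the companion gene lists and the tests were chosen with earlier results of these data known. Named in full were the called members, the 5 with the smallest p, the 4 most abundant per class and, in each companion list, the 3 with the smallest p and any called. H2AC4, H2AC14, H2BC14, H2BC15, H4C4, H4C11 and H4C16 were named after their values were seen. Stem-loops come from GENCODE 29 transcripts. A gene of the TGF-beta response list is not reported here.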

Additional observations from a re-analysis of the deposited data

How the results depend on the processing

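Under total-count, DESeq2 and upper-quartile scaling, a minimum of 50 counts in 3 libraries, the DESeq2 test and limma-voom, 4 histone genes were lower and none was higher. The median of the histone genes ran from -0.10 to -0.08 over those scalings. No histone gene was higher under any alternative, libraries left out included. With an adjusted p under 0.01, 0 histone genes were lower (16 at an unadjusted p under 0.05) and 95 of all genes. Leaving out 1 library gave 0 to 9 lower histone genes, and over all genes 264 to 683 higher and 97 to 240 lower genes. With members sharing at least 20% of their 50-base words left out, an alternative chosen after seeing the data, 3 were lower. With the replicate number as a block, 7 histone genes were lower, H1-3, H2AC14 and H4C6 being added. The numbers did not pair the libraries: deviations of same-numbered TGFB1 and Vehicle libraries correlated at -0.03, 0.04 and 0.01, and 1 of 3 TGFB1 libraries correlated best with its own number. The median and the class ratios kept their sign under every alternative run, but the spread between replicates (SD 0.09 on the log2 scale) was about as large as these values, and leaving out 1 library took the median to between -0.13 and -0.02 and the class ratios to between -0.19 (H4) and -0.02 (H2B). At this depth 17 genes were under 2 CPM, 10 of them untested and the rest with wide intervals; many share words or exons with other genes. The causes of these changes were not tested.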
